A study of Mus musculus with 24 samples.

Results

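The genes described here encode proteins that the visceral endoderm of the mouse yolk sac makes and secretes: plasma carriers and apolipoproteins, the protein parts of lipoprotein particles. A list of 10 was set (Afp, Ttr, Rbp4, Trf, Apoa1, Apoa2, Apoa4, Apob, Apoc2 and Apom), and a gene counted as measured if an array probe was annotated with that 1 symbol alone. By this rule 5 of the 10 were measured, each by 1 probe: Ttr, Apoa1, Apoa4 and Apob on the first of the 2 platforms and Apoc2 on the second, among 6970 named genes in all. No value is given for Afp, Rbp4, Trf, Apoa2 and Apom, which had no probe under this rule.

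Before the placenta works, the visceral endoderm feeds the embryo. Its cells take up maternal protein and lipid at their outer face through receptors such as megalin (Lrp2) and cubilin, digest them, and pass carriers and lipoprotein particles to the embryo on the other side. Many of its products are those the fetal liver makes later, so transcripts of these genes are standard markers of this tissue.

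Mouse embryos were kept in culture at 37 °C. The treated group was exposed for 1 h to 40 µM 4-hydroperoxycyclophosphamide (4CP), a form of the alkylating drug cyclophosphamide that does not need the liver to become active, and for the control group the labels name no drug. The labels used here do not give strain, genotype, embryonic stage or the number of embryos per RNA sample, and do not state whether the yolk sac was left on the embryos. Each of 24 two-channel arrays held RNA of both groups, treated in channel 1 on 12 arrays and in channel 2 on the other 12. The arrays fall into 2 slide sets, 1 per platform, each with 3 slide pairs; the 2 slides of a pair carried the channels swapped, and each slide has 2 array records. The labels do not say whether slide pairs were separate cultures or RNA extracts, so the errors below, all over n = 3 pairs, may be technical.

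The deposited values have no stated unit and were read as log ratios of the 2 channels of an array. The median of each array was subtracted. Such a value holds no expression level, and the presence of the tissue cannot be checked by the level of its markers. The log base (2 or e) and the numerator channel are not stated. For each pair, 2 quantities were formed. The swap difference is the slide with treated RNA in channel 1 minus its swapped partner, divided by 2; the shared value is the mean of the 2 slides. If the deposited values are channel 1 over channel 2, the swap difference is the log ratio of treated over control RNA and the shared value is what the dyes add. If the authors had already turned the swapped slides to treated over control, the shared value is the treatment ratio instead. With channel 2 as the numerator all signs turn. The sources used here do not state this, so both quantities are given and signs are not read as more or less RNA. Before centring, array medians ran from -0.305 to 1.116 in slide set 1. In slide set 2 they ran from 0.272 to 2.099, so they were positive in both channel orientations. Slide set 1 held medians of both signs, and which reading holds was not tested. In bulk RNA, a change in the number of endoderm cells and in the RNA per cell cannot be told apart.

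For orientation, the start regions of 3 measured genes are shown, 250 bases before to 50 after the annotated start, as RefSeq gives them for GRCm38.p6. Apoa1 and Apob are the 2 members whose values swung most between slide pairs, and Apoc2 is the member whose values moved least. Capitals mark matches, on either strand, to 4 motifs: the TATA box (TATAAA), part of an HNF1 site (GTTAAT), part of a nuclear receptor site (AGGTCA) and a GATA site (AGATAA); no matches overlapped in these 3 sequences. The Apoa1 region, chr9:46228380-46228679 on the plus strand, held none of them, and neither did that of Apoa4. The Apob region, chr12:7977427-7977726 on the plus strand, held 1 TATA box, with its first base 60 bases before the start. The Apoc2 region, chr7:19677892-19678191 on the minus strand, held 1 GTTAAT and 2 AGGTCA matches. Of 32851 mouse promoter regions of the same length, 13.6% held TATAAA, 7.10% GTTAAT, 16.3% AGGTCA and 11.2% AGATAA.
Apoa1: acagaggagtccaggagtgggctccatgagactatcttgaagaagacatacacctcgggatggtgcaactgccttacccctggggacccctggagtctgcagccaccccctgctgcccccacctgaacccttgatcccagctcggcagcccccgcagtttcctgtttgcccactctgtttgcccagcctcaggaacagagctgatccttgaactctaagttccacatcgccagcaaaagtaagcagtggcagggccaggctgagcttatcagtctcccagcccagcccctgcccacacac
Apob: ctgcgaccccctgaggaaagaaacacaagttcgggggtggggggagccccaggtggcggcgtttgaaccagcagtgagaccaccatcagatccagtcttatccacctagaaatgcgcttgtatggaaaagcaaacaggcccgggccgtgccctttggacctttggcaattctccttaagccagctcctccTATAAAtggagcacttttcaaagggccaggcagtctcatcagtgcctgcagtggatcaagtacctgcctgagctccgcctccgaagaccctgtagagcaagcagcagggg
Apoc2: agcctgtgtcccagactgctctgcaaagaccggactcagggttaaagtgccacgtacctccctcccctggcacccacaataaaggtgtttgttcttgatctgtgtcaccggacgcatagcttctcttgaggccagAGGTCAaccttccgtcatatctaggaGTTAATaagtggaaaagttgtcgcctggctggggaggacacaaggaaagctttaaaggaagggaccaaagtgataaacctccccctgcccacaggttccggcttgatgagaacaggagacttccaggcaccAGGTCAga

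No measured member passed the test for a difference between treated and control embryos under either reading. In slide set 1, 0 of 4 members had an adjusted p under 0.05 for the swap difference (limma, Benjamini-Hochberg over all probes of the set), beside 0% of all 7680 probes, and the adjusted p was 0.997 for each. In slide set 2, Apoc2 did not pass either (adjusted p = 0.994), beside 0% of its 7680 probes. At an unadjusted p under 0.05 the counts were 180 probes in slide set 1 and 401 in slide set 2, with no member among them. The swap differences of the members were small: means lay between -0.059 and 0.017, and the outermost bound of any member's 95% interval, -0.18 for Apob, corresponds to 1.13-fold if the logarithm is of base 2 and 1.20-fold if it is natural. Without pair 1, 2 or 3 in turn, 24, 30 and 24 probes passed in slide set 1 and 40, 58 and 0 in slide set 2, with no member among them.

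**Figure D1:**
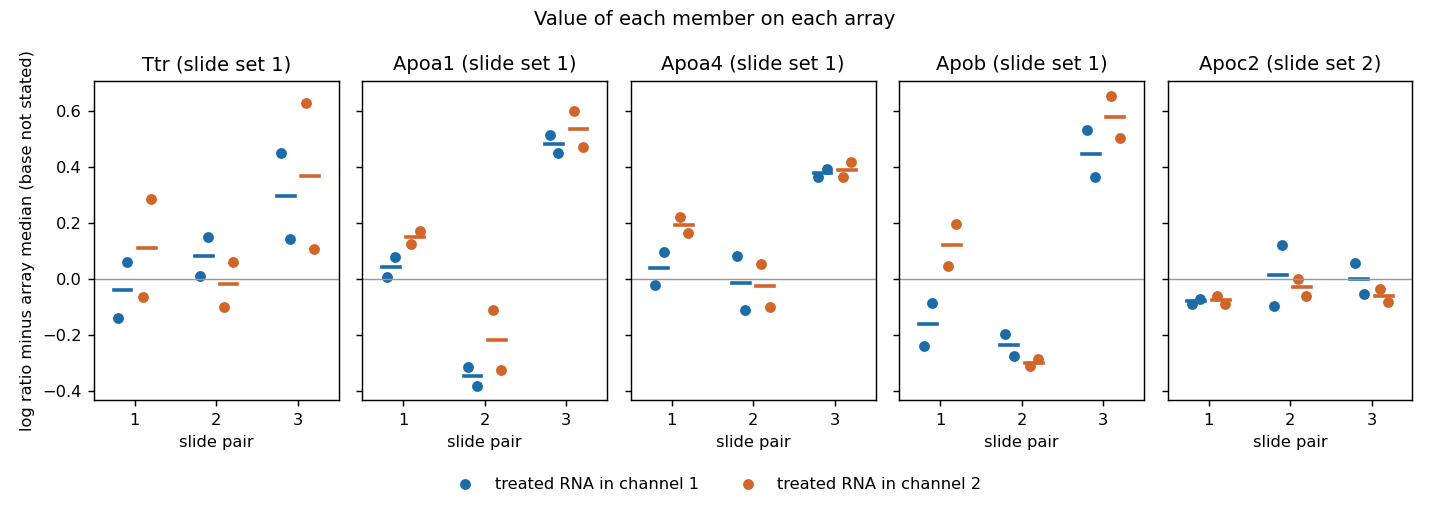
Log ratio of the 5 measured members on each array, minus the array median, by slide pair; each panel is 1 gene, blue points are arrays with treated RNA in channel 1, orange points with it in channel 2, and bars are slide means. In Apoa1, Apoa4 and Apob all 4 arrays of pair 3 lie between 0.36 and 0.66, whichever channel held the treated RNA, while Apoc2 stays between -0.096 and 0.12 on every array.

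Ttr encodes transthyretin, which carries thyroid hormone and, bound to retinol-binding protein, retinol. Its slides with treated RNA in channel 1 read -0.039, 0.082 and 0.30 in pairs 1, 2 and 3, and the swapped slides 0.11, -0.017 and 0.37. The 2 orientations overlapped, and pair 3 was highest in both. The swap difference was -0.075, 0.050 and -0.035 in the 3 pairs, with a mean of -0.020 ± 0.064 (SD, n = 3) and a 95% interval from -0.13 to 0.093. Without pair 1 the mean was 0.00711, without pair 2 -0.0553 and without pair 3 -0.0128. Ttr was also the member whose 2 array records of 1 slide differed most. In pair 3 the first records read 0.45 and 0.63 and the second ones 0.14 and 0.11, whereas in pairs 1 and 2 the second record was the higher on all 4 slides. Averaged over the 6 slides, a record lay 0.14 from its slide mean, more than for 87.6% of the probes of the set, against 0.049 to 0.061 for the other 3 members.

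Apoa1 and Apoa4 encode apolipoproteins of high-density lipoprotein and of particles that carry absorbed lipid, and Apoa1 also activates the enzyme that esterifies cholesterol in plasma. The 2 genes are neighbours in the mouse genome, with 1 protein-coding gene, Apoc3, between them in the RefSeq annotation. Apoa1 read 0.043, -0.35 and 0.48 in pairs 1, 2 and 3 with treated RNA in channel 1, and 0.15, -0.22 and 0.54 on the swapped slides. Both slides of a pair thus fell on the same side of the array median in every pair, low in pair 2 and high in pair 3. The swap difference of Apoa1 was -0.054, -0.066 and -0.027, on the same side in all 3 pairs, with a mean of -0.049 ± 0.020 (SD, n = 3) and a 95% interval from -0.16 to 0.058. It was the 1 member of 4 in slide set 1 with the same side in all pairs, where 22.6% of all probes did this, so the share is near the background.

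Apoa4 read 0.039, -0.013 and 0.38 with treated RNA in channel 1, and 0.19, -0.022 and 0.39 on the swapped slides. Its 2 slides differed most in pair 1, where the swap difference stood at the 21.3rd percentile of the probes of the set. The swap difference was -0.078, 0.0046 and -0.0061, with a mean of -0.026 ± 0.045 (SD, n = 3) and a 95% interval from -0.14 to 0.083. Without pair 1 the mean was -0.000762, and without pair 2 it was -0.042. The mean size of its swap difference over the pairs, 0.030, stood at the 7.63rd percentile of the probes of the set.

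Apob encodes the large structural protein of low-density and very low-density lipoprotein, without which the endoderm cannot export lipid. It read -0.16, -0.24 and 0.45 with treated RNA in channel 1, and 0.12, -0.30 and 0.58 on the swapped slides. Pair 1 was the single pair in which its slides fell on opposite sides of the array median. The swap difference was -0.14, 0.031 and -0.066, with a mean of -0.059 ± 0.087 (SD, n = 3) and a 95% interval from -0.18 to 0.061. This was the mean farthest from 0 among the 5 members, and it was -0.0174 without pair 1 and -0.104 without pair 2.

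Apoc2 encodes the cofactor that switches on lipoprotein lipase. On slide set 2 it read -0.078, 0.014 and 0.0024 in pairs 1, 2 and 3 with treated RNA in channel 1, and -0.074, -0.029 and -0.058 on the swapped slides. All 6 slides lay between -0.078 and 0.014, close to the array median. The swap difference was -0.0019, 0.022 and 0.030, with a mean of 0.017 ± 0.017 (SD, n = 3) and a 95% interval from -0.050 to 0.084. Without pair 1 the mean was 0.026 and without pair 3 it was 0.00988. Its interval was the narrowest of the 5, reaching at most 1.06-fold for base 2 and 1.09-fold for a natural logarithm. The limma interval draws on the variance of all probes of a set, so its width is not a trait of Apoc2 alone. Over all probes, the SD of the swap difference was 0.058, 0.0789 and 0.0866 in the pairs of slide set 2. In slide set 1, which held the other members, it was 0.124, 0.0987 and 0.0996. The side was not the same in all 3 pairs; it was for 24.5% of the probes of slide set 2.

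**Figure D2:**
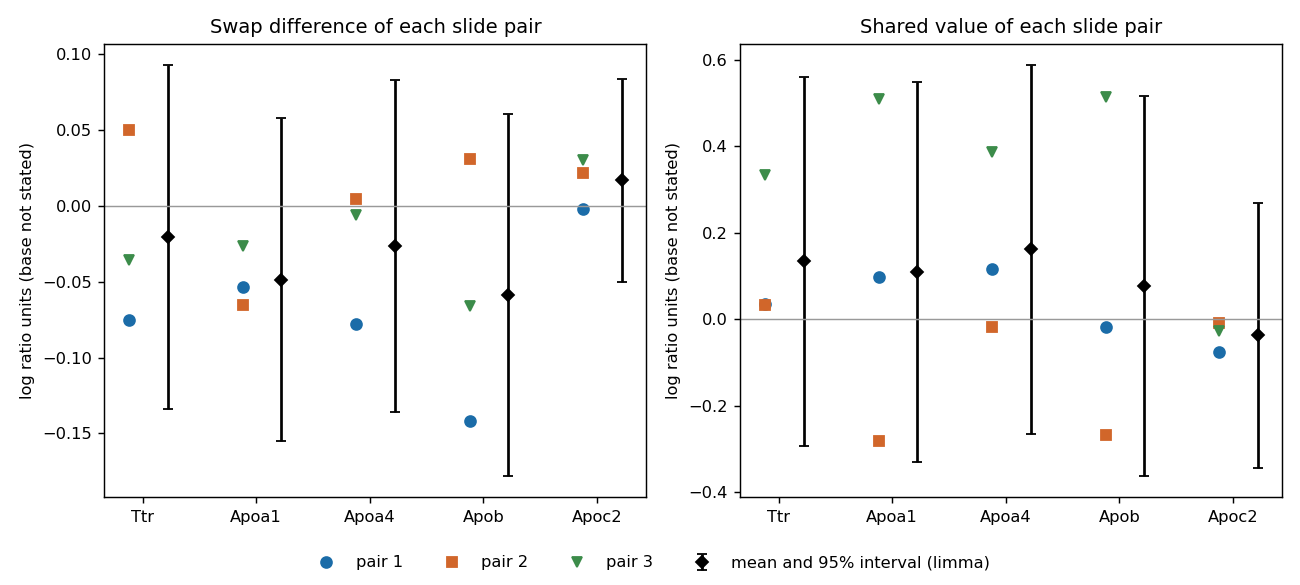
Swap differences (left) and shared values (right) of the 5 members in log ratio units; coloured points are slide pairs 1, 2 and 3, and black diamonds the mean with the 95% interval of the limma fit. Every interval includes 0, and the vertical scale of the right panel is several times that of the left one.

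The mean shared values of the slide set 1 members were farther from 0 than their mean swap differences, and the shared values varied with the pair. The gap was not particular to the members. Over all probes of the set, the median absolute mean was 0.17 for the shared value and 0.035 for the swap difference. For the 4 members it was 0.12 and 0.038. The members' shared values were 0.037, 0.032 and 0.33 for Ttr in pairs 1, 2 and 3, 0.097, -0.28 and 0.51 for Apoa1, 0.12, -0.017 and 0.39 for Apoa4, and -0.018, -0.27 and 0.52 for Apob. Pair 3 was the highest and pair 2 the lowest for each of the 4 genes, though for Ttr pairs 1 and 2 lay close together. Genes outside the members, such as Vldlr and Dgat1, had this order too. The share of all probes with it was not counted, so it is not read as a trait of the members. Taken as the treatment ratio, the shared value gave means of 0.13 ± 0.17 for Ttr, 0.11 ± 0.40 for Apoa1, 0.16 ± 0.21 for Apoa4 and 0.077 ± 0.40 for Apob (SD, n = 3). None of the 4 passed (limma, adjusted p from 0.860 for Apoa4 to 0.941 for Apob), beside 2.85% of the probes of the set, all of them negative. The outermost bound of the 4 intervals was that of Apoa4, which ran from -0.27 to 0.59 and reaches 1.80-fold for a natural logarithm. Under this reading the slides therefore bound the members far less tightly than under the other.

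For Apoc2 the shared values were -0.076, -0.0073 and -0.028, with a mean of -0.037 ± 0.035 (SD, n = 3; limma, adjusted p = 0.940, beside 0% of the probes of slide set 2). They were on the same side in 3 of 3 pairs, as for 36.4% of the probes of the set. In slide set 1, Ttr alone of the 4 members had this, where 35.5% of probes did. The SD of the shared value over pairs placed the members far apart: Apoc2, at 0.035, stood at the 1.60th percentile of its set, while Apoa1 and Apob, at 0.396 and 0.399, were above 64.0% and 64.7% of theirs, and Ttr and Apoa4, at 0.173 and 0.205, above 19.5% and 25.6%.

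**Figure D3:**
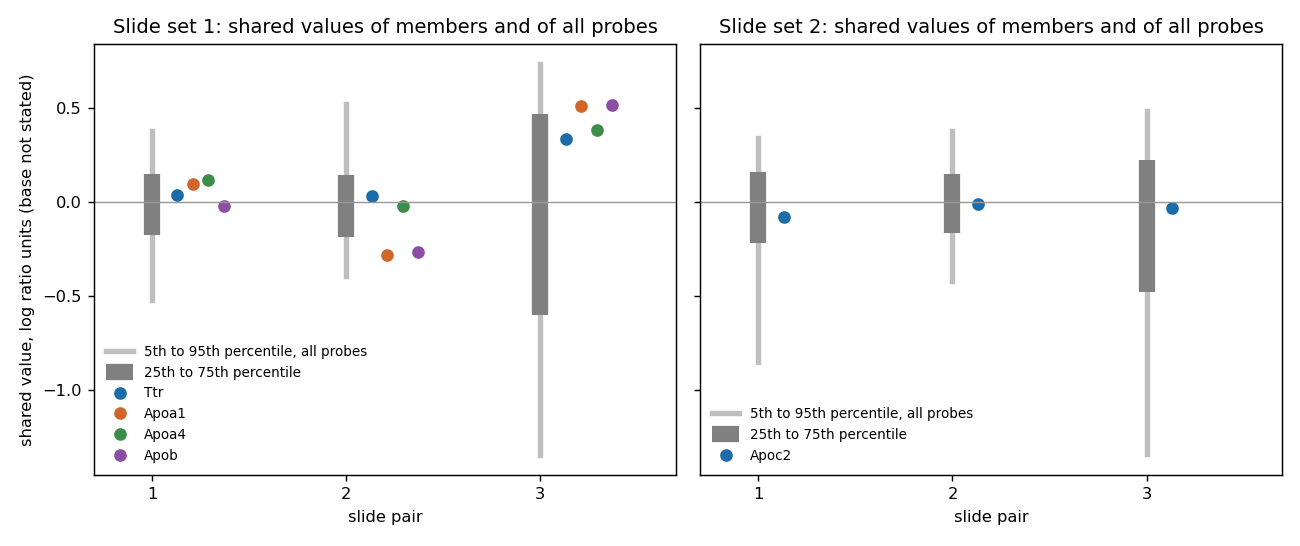
Shared value of each member by slide pair (coloured points) beside the spread of all 7680 probes of the set (dark grey, interquartile range; light grey, the range that leaves out 5% at each end), in log ratio units. The spread of all probes is widest in pair 3 of slide set 1, where the 4 members sit between 0.33 and 0.52.

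All probes varied with the pair, so the members were also placed by rank within it. The SD of the shared value over all probes of slide set 1 was 0.272, 0.271 and 0.679 in pairs 1, 2 and 3, and that of the swap difference was 0.124, 0.0987 and 0.0996. In pair 3 the members' shared values stood at the 67.1st (Ttr), 70.0th (Apoa4), 78.0th (Apoa1) and 78.3rd (Apob) percentile. In pair 2, Apoa1 and Apob stood at the 14.5th and 15.99th percentile, with Ttr at the 57.2nd and Apoa4 at the 48.5th. The swing of Apoa1 and Apob between these pairs was thus also one of rank, not of scale alone. Both slides of a pair fell on the same side of the array median in all 3 pairs for 2 of the 4 members (Apoa1 and Apoa4), where 54.2% of probes of slide set 1 did this, and for Apoc2 in 1 pair, where 68% of the probes of slide set 2 did so in all 3.

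Over the 12 arrays of slide set 1, which come from 6 slides and 3 pairs and so are not independent, the genes whose values were most like the mean of the 4 members were Nlrp4g (Pearson's r = 0.986), Tmem38b (0.984), Umodl1 (0.983), Sp100 (0.983) and AU022793 (0.981), with the swapped slides not turned. Such likeness was not limited to these genes: 209 of 3834 other genes had r over 0.9, while the median gene had r = -0.609. The median gene thus ran against the members over the arrays. Shared values of all probes spread most in pair 3 (SD 0.679, against 0.272 and 0.271 in pairs 1 and 2). The arrays of pair 3 can therefore weigh most in r. The members were not equally alike. Apoa1, Apoa4 and Apob had r from 0.93 to 0.943 among themselves, and Ttr had r from 0.527 to 0.766 with them. The share of other gene pairs with such r was not counted. For Apoc2 on slide set 2 the closest genes were Nampt (r = 0.877), Iah1 (0.784), Dgcr8 (0.771), Bola2 (0.770) and Tsr2 (0.759), none above 0.9.

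Other genes of the same pathway were read from lists set by function, and none passed for the swap difference in either set. Of the receptors and adaptors that take up maternal protein and lipid, 6 of 13 were measured in slide set 1, with 3 positive and 3 negative means and a median of 0.0032, and 8 in slide set 2, with 3 positive and 5 negative and a median of -0.015. Tfrc, the transferrin receptor, had 0.012 ± 0.047 and Scarb1, the receptor for high-density lipoprotein, 0.011 ± 0.079 in slide set 1 (SD, n = 3), against -0.038 ± 0.092 for Lrp2 and -0.056 ± 0.12 for Vldlr, a receptor for very low-density lipoprotein. In slide set 2, Lrp2 had -0.037 ± 0.095, Lrpap1, the chaperone of that receptor family, 0.061 ± 0.13, and Stra6, the receptor for retinol-binding protein, -0.079 ± 0.11. Lrp2, measured by 1 probe in each set, thus had similar mean swap differences on both platforms, each smaller than its SD. Its mean shared value was 0.52 ± 0.12 in slide set 1 and 0.017 ± 0.12 in slide set 2 (SD, n = 3). Under that reading the platforms did not give similar means.

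Of genes that build, edit or turn over lipoproteins, 5 of 22 were measured in slide set 1 (3 positive, median 0.0039) and 4 in slide set 2 (3 positive, median 0.0086). Mttp, the transfer protein that loads lipid onto the Apob protein, had 0.0039 ± 0.087 over 2 probes in slide set 1 (SD, n = 3). In slide set 2, P4hb, the smaller partner of that transfer protein and a disulfide isomerase, had 0.046 ± 0.015 over 2 probes and was positive in each pair, and Apobec1, which edits the Apob transcript, had -0.052 ± 0.055. In slide set 1, Lpl, the lipase that Apoc2 activates, had -0.031 ± 0.14 and Npc2, a lysosomal cholesterol carrier, 0.043 ± 0.058. For the shared value, 1 of the 27 probes of all 5 functional lists in slide set 1 passed, near the 2.85% of all probes, and none in slide set 2. It was one of 2 probes for Npc1, the membrane partner of Npc2 (limma, adjusted p = 6.5e-04), where the gene's shared values were -0.43, -0.56 and -1.05.

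Among other plasma proteins of liver and endoderm, 3 of 21 were measured in slide set 1, with a median swap difference of 0.0018: Alb, albumin, at 0.0020 ± 0.078, Cp, the copper carrier ceruloplasmin, at 0.0018 ± 0.027, and Fga, a fibrinogen chain, at -0.020 ± 0.031 (SD, n = 3). Their shared values were, like those of the 4 members, lowest in pair 2 and highest in pair 3: 0.064, -0.22 and 0.55 for Alb, 0.35, -0.38 and 0.66 for Fga, and -0.087, -0.32 and 0.66 for Cp. This order was not particular to plasma proteins. In slide set 1, genes of other lists had it too, among them Vldlr, Dgat1 and Plac1. Its share over all probes was not counted. In slide set 2 the list had Serpina1e, a protease inhibitor of plasma, with shared values of 0.27, 0.36 and 0.54, lowest in pair 1. Of the list on retinoid and iron cargo, iron genes alone were measured, with Ftl1 in both sets. In each set 0 of 3 had a positive mean shared value, where 52.2% of all probes were positive in slide set 1 and 43.6% in slide set 2. With so few genes this is not read as a trait of iron genes, and none of their probes passed for the shared value. Ftl1, the ferritin light chain, had a mean shared value of -0.64 ± 0.65 over 5 probes in slide set 1 and -0.66 ± 0.68 over 1 probe in slide set 2, and its swap difference was 0.11 ± 0.10 and 0.027 ± 0.039. Of endoderm transcription factors, Gata6 had a swap difference of -0.0082 ± 0.051, Otx2 0.020 ± 0.038 and Gata4 0.017 ± 0.064.

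**Figure D4:**
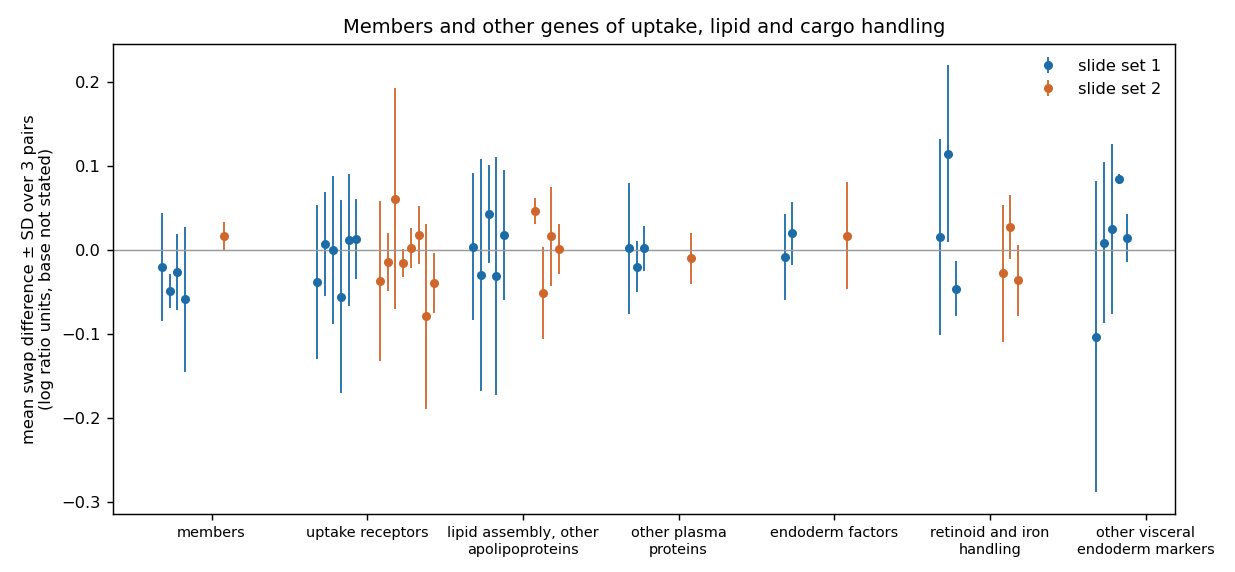
Mean swap difference of the members and of other genes by list, with the SD over 3 slide pairs, in log ratio units; each point is 1 gene, blue in slide set 1 and orange in slide set 2. The members lie within the range of the other genes, and the 4 members of slide set 1 have means below 0, where their shared values have means above 0 and Ttr without pair 1 is also above 0.

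All 4 members of slide set 1 had negative mean swap differences, with a median of -0.038, where 53.8% of the probes of the set were negative and the median of all probes was -0.0047. The shared value, a separate quantity, had a positive mean for all 4 (median 0.12, where 52.2% of probes were positive). The mean swap difference of Ttr turned positive without pair 1 (0.00711). Of 5 other visceral endoderm markers measured in that set, 4 had positive mean swap differences, with a median of 0.014, from Rhox5, a homeobox factor, at -0.10 ± 0.18 to Ctsl, a lysosomal protease, at 0.084 ± 0.0063 (SD, n = 3). Markers of epithelium were positive for 4 of 4 genes in slide set 1 (median 0.053) and 1 of 2 in slide set 2 (median -0.0064), and those of embryonic red cells negative for 3 of 3 in slide set 2 (median -0.054), and no marker of any list passed for the swap difference. For the shared value, 4 of 5 endoderm and 1 of 4 epithelial markers were positive in slide set 1, and 0 of 2 epithelial and 0 of 3 red cell markers in slide set 2, where 43.6% of probes were positive. Among other cell types, trophoblast and decidua had 2 measured genes in slide set 1 (median 0.084) and 1 in slide set 2 (-0.053), neural tube 1 (0.054) and extra-embryonic mesoderm and endothelium 1 (0.020). Their part in the members' values was not tested.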

How the data were processed

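Labels describe the arrays as 2-channel hybridisations of treated against control embryo RNA. The deposited values, 1 table of 7680 probes and 12 arrays per platform, have no stated unit, base, numerator, background correction or normalization. They were entered as a score, since per the labels the authors state no steps by which the deposited score values were made, and read as log ratios from their signs and range (-2.60 to 7.71 and -4.33 to 5.96; 7.71 is more than the log10 of a 16-bit range, 4.82). Spot signals were not used here, so no statement on background is possible. The number of arrays limits the precision.

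Arrays were centred on their median, the 2 records of a slide averaged, and swap difference and shared value formed per slide pair. The mean over 3 pairs was tested against 0 with limma 3.58.1 (lmFit, eBayes; R 4.3.3) over all probes of a set, two-sided, with Benjamini-Hochberg adjustment at 0.05, without a filter; the fit was tested on simulated data. The design had assumed a stated log unit; a change of base leaves the p-values as they are. Slide pairs are given by the titles. The 2 slides of a pair correlated with r from 0.70 to 0.96 over probes. Slides of other pairs with treated RNA in the same channel had r from 0.00901 to 0.862. The ranges overlap, so these correlations do not establish the pairing. Swap differences of 2 pairs had r from -0.144 to 0.15.

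Probes were named by platform annotation, updated by gene identifier (4712 of 4749 single-symbol probes matched in slide set 1 and 4884 of 4935 in slide set 2); 227 and 275 probes with several symbols and 2704 and 2470 with none were not named. All members are named. Of the other lists, up to the 2 highest and 2 lowest means were named; other genes were named after their values were seen. Members and lists were chosen with earlier results of these data known.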

Additional observations from a re-analysis of the deposited data

How the results depend on the processing

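The slide pair served as the replicate block. Without the turn of swapped slides (the shared value), 219 probes passed in slide set 1. Values as deposited means that median centring was left out, while the swap difference was still formed. With these, 33 probes passed in slide set 1 and 1 in slide set 2. Leaving out 1 pair gave 24 to 30 probes in slide set 1 and 0 to 58 in slide set 2. First or second array records alone, quantile normalization and the fit with no replicate block, on 6 slides per set, gave 0. None of the 5 members passed under any of the 9 alternatives, and 37 member values kept their direction while 8 turned. Of these 8, 5 were the mean shared values (Ttr 0.134, Apoa1 0.109, Apoa4 0.162, Apob 0.0769 and Apoc2 -0.0372). The shared value is a separate quantity, so its sign is not a reversal of the swap difference. The sign of the swap difference itself turned for Ttr without pair 1 (0.00711). The lowest Ttr value with 1 pair left out was -0.0553, without pair 2. For Apoc2 the swap difference turned with values as deposited (-0.0361) and with first records alone (-0.00536). The cause was not tested.

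With values as deposited the median of all probes moved to -0.128 in slide set 1, and members read -0.144 (Ttr) to -0.183 (Apob), with the lowest adjusted p over all settings, 0.147. Each member had 1 probe, so averaging the probes of a gene changed nothing. With 3 pairs whose independence is not stated, effects inside the intervals are not excluded. The intervals are per gene and not adjusted over probes, so they are no detection limit, and larger effects could also have gone uncalled. Intensity limits are unknown.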
